A study of Caenorhabditis elegans with 15 samples.

Results

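The comparison described here set mutant worms from one strain collection against mutant worms from another. It took 12 of the 15 total RNA libraries of the series, 6 from *C. elegans* mutants supplied by the Caenorhabditis Genetics Center (CGC) and 6 from mutants supplied by the National Bioresource Project (NBRP), and asked over all genes which differences follow the source of the strain rather than the mutated gene. The CGC mutants were *nrx-1* (ok1649) and *nlg-1* (ok259), the NBRP mutants were *nrx-1* (tm1961) and *nlg-1* (tm474), and each strain had 3 libraries. The remaining 3 libraries came from N2, the laboratory wild-type strain, itself a CGC strain, and entered only the contrasts with N2 and 1 alternative fit. Each sample was about 20000 synchronized worms kept at 20 °C, and every library is labelled young adult. Per the study's methods, ok1649 and tm1961 delete part of the long alpha isoforms of *nrx-1*, ok259 is a full knockout of *nlg-1*, and tm474 is a deletion inside the *nlg-1* locus. Strains carrying tm1961, ok259 and tm474 were not backcrossed before sequencing, and the sample labels give the genotypes but not the supplier. With only 2 strains per supplier, the supplier, the way each allele was made and the private history of each strain cannot be told apart.

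Neurexins are presynaptic adhesion proteins and neuroligins are their postsynaptic partners, and *C. elegans* has a single gene for each, *nrx-1* and *nlg-1*. Mutant strains differ from N2 not only at the mutated gene but also wherever mutagenesis, drift in the laboratory or an ancestral stock left other sequence changes, and such changes are inherited as blocks of neighbouring genes. The ends of *C. elegans* autosomes are rich in gene families that are gained and lost between strains, among them F-box proteins, C-type lectins and chemoreceptors.

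Few genes were called between the suppliers. Of 17012 genes that passed the filter on low counts, out of 46756 listed, 4 were higher and 4 lower in CGC than in NBRP mutants (0.0235% of the genes tested in each direction, 0.047% together). The test was edgeR's quasi-likelihood test with the mutated gene as a covariate, and a DEG needed an adjusted p under 0.05, by Benjamini-Hochberg over the genes tested, together with a log2 fold change beyond 1 in either direction. The 4 higher genes were ZK228.4, ZK228.3, ZK262.8 and R10E4.1, and the 4 lower genes were Y102A5C.36, Y102A5C.5, Y102A5C.6 and Y102A5C.35. Of these 8 genes, 5 are annotated as protein-coding and 3 as pseudogenes, 7 lie on chromosome V, where they made up 0.202% of the 3459 genes tested, and all 8 had CGC libraries that did not overlap the NBRP libraries. Without adjustment, 51 genes were higher (0.3%) and 58 lower (0.341%) at p below 0.05, 109 in all (0.641%). In the same fit no gene was called between *nrx-1* and *nlg-1* mutants (smallest adjusted p = 0.993), with 85 genes higher (0.5%) and 101 lower (0.594%) in *nrx-1* mutants at an unadjusted p below 0.05. DESeq2 also called no gene there, and called 9 higher and 10 lower genes between CGC and NBRP mutants. In edgeR both shares of genes at an unadjusted p below 0.05 were smaller than that threshold passes where no gene differs. The few calls therefore do not show that few genes differ.

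The libraries varied widely within every strain. Total counts were 13892075 to 21177612 in CGC mutants, 10152578 to 26211067 in NBRP mutants and 22028366 to 24084262 in N2. Genes other than protein-coding ones took 3.26% to 30.9% of the counts in CGC mutants, 5.24% to 26.8% in NBRP mutants and 4.39% to 5.96% in N2. The CGC mean exceeded the NBRP mean by 2.64 percentage points (exact permutation test within the mutated gene, two-sided, p = 0.675; the smallest p the design allows is 0.005). In a principal component analysis of the 12 libraries the first component carried 70.9% of the variance and separated libraries of one strain rather than suppliers. Where 4 mutant libraries with less than 10% of such counts were left out, a choice made after seeing the data, only ZK228.4 remained a DEG. The labels give no culture or extraction batch, the methods speak of 3 independent worm preparations per strain, and CPM below are counts scaled to library size with TMM factors. The common dispersion of the fit was 0.458, and the median log2 fold change over all genes tested was 0.15, so that small positive values lie near the middle of the distribution.

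The mutated genes themselves did not separate the suppliers. *nrx-1* (chromosome V, 10825011 to 10846703, WBcel235) had 7.95, 8.81 and 6.59 CPM in *nrx-1* (ok1649) and 7.55, 10.3 and 8.82 CPM in *nlg-1* (ok259), against 7.90, 4.02 and 4.74 CPM in *nrx-1* (tm1961) and 6.08, 8.48 and 11.6 CPM in *nlg-1* (tm474). The ranges overlapped, and the log2 fold change between CGC and NBRP mutants was 0.25 (standard error, SE, 0.31, adjusted p = 1.00). *nlg-1* (chromosome X, 13625373 to 13631172) averaged 7.85 ± 3.38 CPM in CGC mutants and 5.58 ± 5.90 CPM in NBRP mutants (SD, n = 6 each), with a log2 fold change of 0.59 (SE 0.62, adjusted p = 1.00). Each mean pools an *nlg-1* mutant strain with an *nrx-1* mutant strain. The NBRP values include 17.0 CPM in replicate 1 of *nrx-1* (tm1961). N2 had 10.6 ± 1.03 CPM of *nrx-1* and 14.7 ± 3.45 CPM of *nlg-1* (SD, n = 3). Counts per gene include reads outside a deletion, so these levels do not check the alleles.

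The largest differences in favour of CGC mutants were a block of genes on the right arm of chromosome V that had almost no counts in any NBRP library. ZK228.4 (chromosome V, 18462787 to 18465426) had 345, 701 and 1206 counts in *nrx-1* (ok1649) and 135, 337 and 400 counts in *nlg-1* (ok259), against 0, 2 and 0 counts in *nrx-1* (tm1961) and 0 counts in each library of *nlg-1* (tm474). N2 had 178, 225 and 120 counts, so that every CGC and N2 library was far above every NBRP library. The pooled CGC level was 1890 times the pooled NBRP level, which rests on 2 counts (95% exact interval 523 to 15612, counting error only), and the adjusted p was 1.69e-05.

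ZK228.3 (chromosome V, 18458241 to 18461250), the gene before it, behaved in the same way. It had 337, 177 and 528 counts in *nrx-1* (ok1649) and 127, 153 and 175 counts in *nlg-1* (ok259), against 0 counts in all 6 NBRP libraries. N2 had 160, 242 and 257 counts. CGC mutants were at least 81.2-fold higher, with the NBRP libraries set at a floor of 3 counts per library (adjusted p = 0.00129).

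ZK262.8 (chromosome V, 18438381 to 18440195) marked the other end of the block at a much lower level. It had 6, 20 and 13 counts in *nrx-1* (ok1649) and 10, 18 and 20 counts in *nlg-1* (ok259), 0 counts in all 6 NBRP libraries, and 38, 26 and 20 counts in N2. CGC mutants were at least 4.40-fold higher by the same floor (adjusted p = 0.0456), and the call was lost when any one of the 12 libraries was left out (adjusted p 0.0650 to 0.206) and in 7 of 11 other alternatives (up to 0.277, with a replicate block). From ZK262.8 to ZK228.4 the block spans 27.05 kb.

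Neighbours of these genes were looked at after the values were seen. ZK262.9, which overlaps ZK262.8 on the same strand so that their reads may not be separable, had 3 to 12 counts in the 6 CGC libraries, 0 in the 6 NBRP libraries and 7 to 18 in N2. ZK228.1, between ZK262.9 and ZK228.3, had 0 to 6 counts in CGC mutants, 0 in NBRP mutants and 2 to 7 in N2. *srw-82*, a chemoreceptor gene of the serpentine receptor class W, had 0 to 15 counts in CGC mutants, 0 in NBRP mutants and 0 to 5 in N2. None of these 3 genes passed the filter, and their counts add to 42, 15 and 29 in CGC mutants, and of the 3 only ZK262.9 had every CGC library above every NBRP library.

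On either side of the block the ranges of the suppliers overlapped. ZK262.19, the nearest tested gene to the left, had a log2 fold change of 0.58 (SE 0.66, adjusted p = 1.00), and Y51A2D.18, the nearest to the right, had -0.10 (SE 0.48, adjusted p = 1.00). Both had counts in every library of both suppliers. ZK262.3, 24.0 kb left of ZK262.8, was lower in CGC mutants at an unadjusted p of 0.0254 (log2 fold change -0.96, adjusted p = 1.00), with overlapping ranges of 16 to 34 counts in CGC and 17 to 85 counts in NBRP mutants. The silent stretch in NBRP mutants was therefore bounded on both sides by tested genes that were counted, at 6.11 kb from ZK262.19 to *srw-82* and 15.6 kb from ZK228.4 to Y51A2D.18. Closer to ZK228.4 on the right lie ZK228.12 and *srh-182*, which were not tested. ZK228.12 had 0 to 7 counts in NBRP and 0 to 2 in CGC mutants, and *srh-182* had 0 to 2 and 1 to 4. *srw-83*, which lies between ZK262.19 and *srw-82*, had no count in any of the 12 mutant libraries and 1 to 6 in N2.

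**Figure D1:**
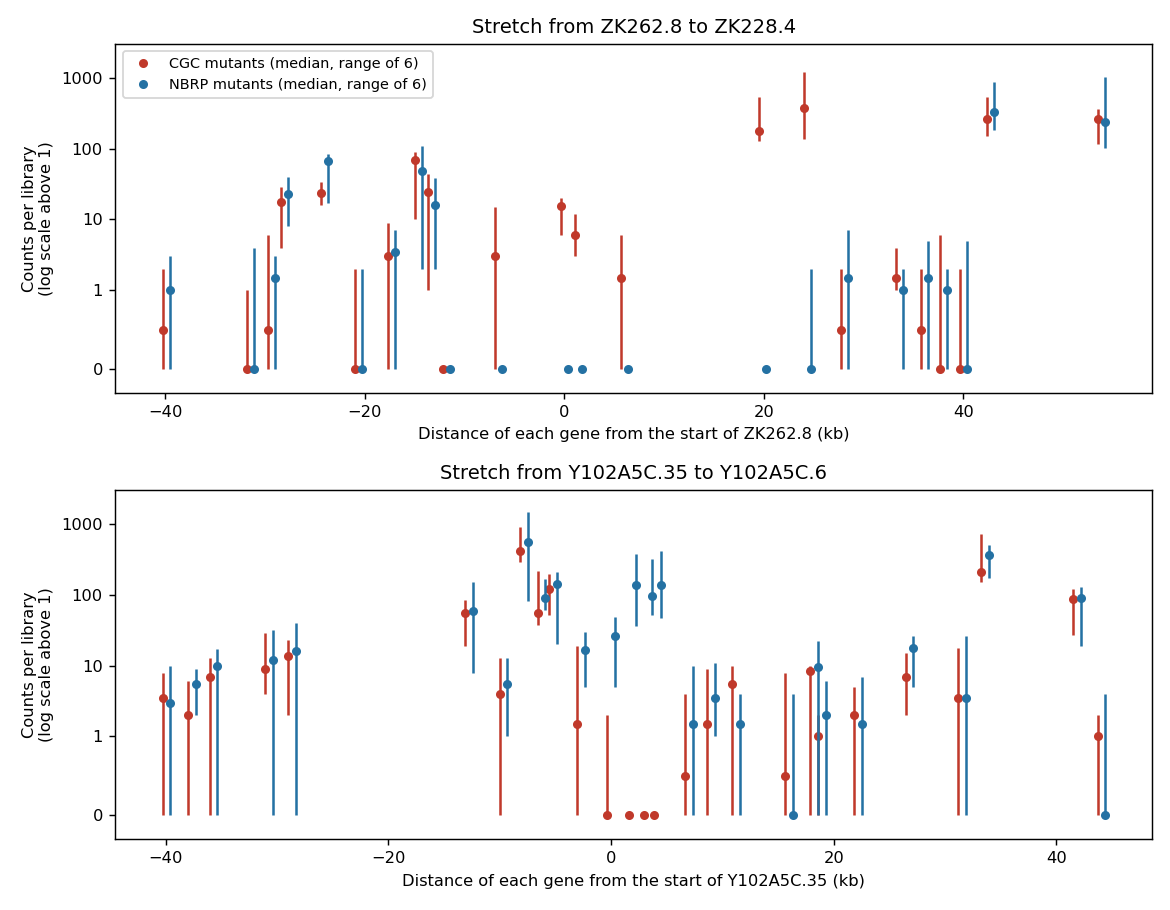
Counts per library (vertical axis, logarithmic above 1) of the genes around the 2 stretches of chromosome V, by distance in kb from the first DEG of each. Points are medians and lines the range of 6 libraries, CGC mutants left of NBRP mutants at each gene. In the upper panel the NBRP points sit at 0 between *srw-82* and ZK228.4, and in the lower panel the CGC points sit at 0 from Y102A5C.35 to Y102A5C.6, while genes on either side overlap.

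A second block of 5.08 kb, 1.51 Mb to the left on the same chromosome, was silent in the other direction. Y102A5C.36 (chromosome V, 16926922 to 16927445), a protein-coding gene, had 0 counts in all 6 CGC libraries, against 121, 362 and 383 counts in *nrx-1* (tm1961) and 36, 155 and 105 counts in *nlg-1* (tm474). N2 had 179, 185 and 240 counts. It was at least 49.4-fold lower in CGC mutants (adjusted p = 0.00228). The next 2 genes, the pseudogenes Y102A5C.5 and Y102A5C.6, had no count in CGC mutants either and were at least 38.5-fold and at least 52.9-fold lower (adjusted p = 0.0159 for both). The 3 N2 libraries together had 1257 counts of Y102A5C.5 and 2045 counts of Y102A5C.6. A pseudogene can share sequence with near-identical copies, whose reads are lost when only unique alignments are counted. Leaving out any of the 3 *nrx-1* (tm1961) libraries or replicate 3 of *nlg-1* (tm474) lost both calls (adjusted p 0.0523 to 0.0744), as did a replicate block in the fit (adjusted p = 0.0753 for both).

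Y102A5C.35 (chromosome V, 16924985 to 16926125), also a pseudogene, closed the block on its left. It had 0 counts in each *nrx-1* (ok1649) library and 0, 2 and 1 counts in *nlg-1* (ok259), against 16, 48 and 48 counts in *nrx-1* (tm1961) and 5, 37 and 13 counts in *nlg-1* (tm474), with 24, 16 and 34 in N2. NBRP mutants had 46.0 times the CGC level (95% exact interval 15.5 to 225, counting error only; adjusted p = 0.0433). The call held without replicate 2 of *nlg-1* (ok259) and was lost when any of the other 11 libraries was left out (adjusted p 0.0523 to 0.200) and in 3 of 10 other alternatives (up to 0.147, with library totals).

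The gene to the left, Y102A5C.4, was not called (log2 fold change -1.94, SE 0.82, unadjusted p = 0.0324, adjusted p = 1.00). Its counts were 0 to 4 in 5 of the CGC libraries and 19 in replicate 2 of *nlg-1* (ok259), against 5 to 30 in NBRP mutants and 6 to 21 in N2. The nearest tested gene on the right, the pseudogene Y102A5C.11, had a log2 fold change of -0.10, with 0 to 10 counts in CGC and 0 to 22 in NBRP mutants. Between it and Y102A5C.6 lie *clec-237*, Y102A5C.43, *fbxa-110* and *fbxa-204*, which were not tested. These had at most 11 counts in any mutant library, so the right edge of the block is not resolved. Farther out, *fbxa-207*, an F-box gene annotated as a pseudogene, had a log2 fold change of 0.24, *clec-238*, a C-type lectin gene, of -0.88, and *efl-1*, which encodes an E2F transcription factor, of 0.17 (adjusted p = 1.00 for each), all with overlapping ranges. N2 therefore had counts in both blocks, and each pair of mutant strains from a common supplier lacked them in one block only.

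**Figure D2:**
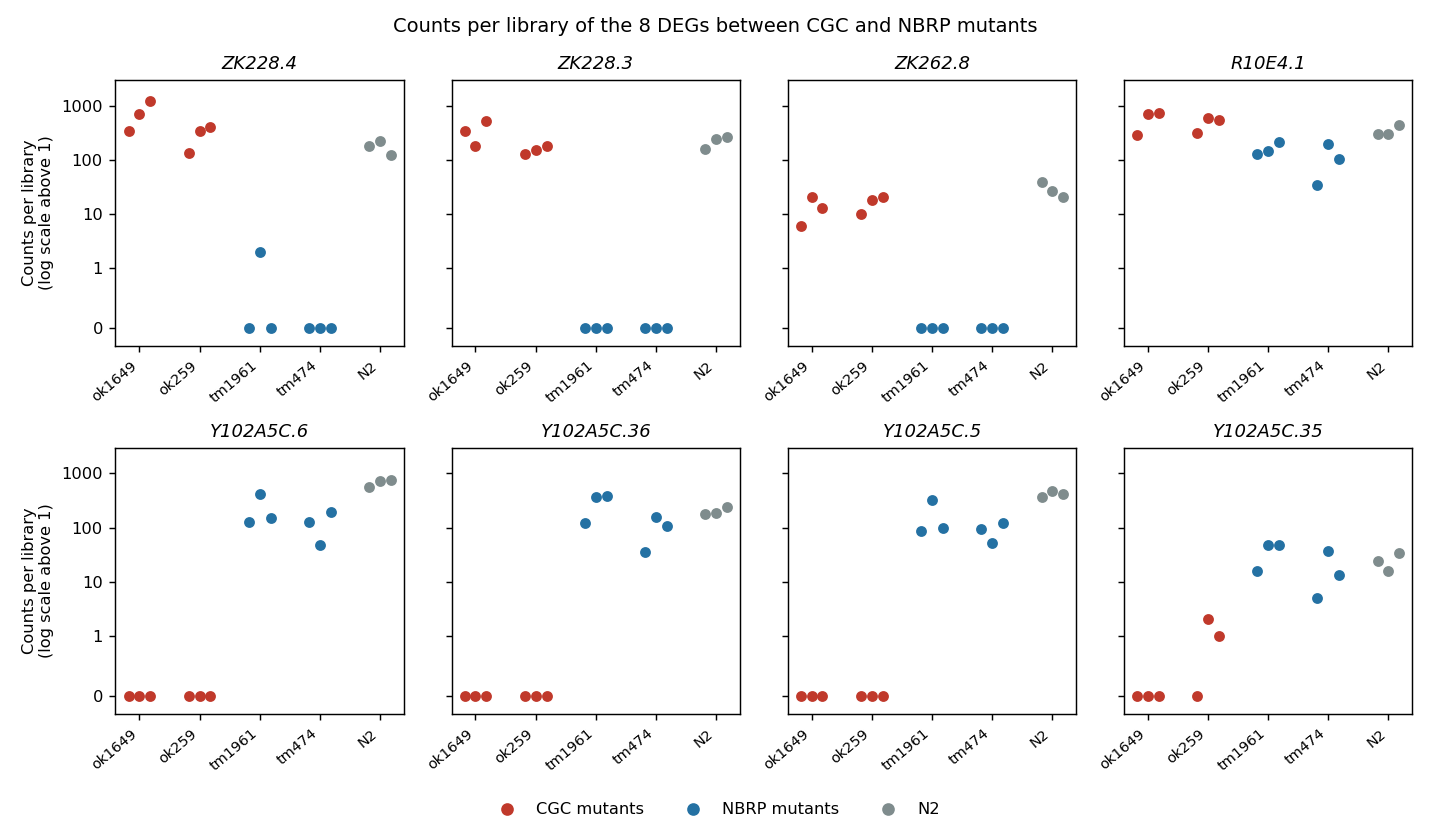
Counts per library (vertical axis, logarithmic above 1) of the 8 DEGs, 3 points per strain, with CGC mutants, NBRP mutants and N2 from left to right. ZK228.3 and ZK262.8 are at 0 in all NBRP libraries, ZK228.4 in 5 of 6, and Y102A5C.6, Y102A5C.36 and Y102A5C.5 are at 0 in all CGC libraries.

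A floor on one side only was looked for over all genes. Of 12885 genes with at least 10 counts in every CGC library, 2 had at most 3 counts in every NBRP library (0.0155%), ZK228.3 and ZK228.4. Of 11899 genes with at least 10 counts in every NBRP library, 3 had at most 3 counts in every CGC library (0.0252%), Y102A5C.36, Y102A5C.5 and Y102A5C.6. Between *nrx-1* and *nlg-1* mutants there were 0 such genes in either direction.

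The eighth DEG, R10E4.1 (chromosome III, 4269743 to 4272510), differed in degree rather than by absence. It had 20.9, 41.2 and 43.1 CPM in *nrx-1* (ok1649) and 22.4, 26.6 and 26.5 CPM in *nlg-1* (ok259), against 6.27, 4.79 and 10.2 CPM in *nrx-1* (tm1961) and 5.44, 8.65 and 4.04 CPM in *nlg-1* (tm474). N2 lay between, at 13.8, 13.7 and 15.6 CPM, and no library of one supplier reached the other. The log2 fold change was 2.18 (SE 0.34, adjusted p = 0.0456). The log2 fold change against N2 was 1.05 in CGC mutants (adjusted p = 0.197) and -1.13 in NBRP mutants (adjusted p = 0.285), neither of which passed. The call held without replicate 1 of *nrx-1* (ok1649) and was lost without any of the other 11 libraries (adjusted p 0.0627 to 0.200), and it was also lost in 8 of 12 other alternatives (up to 0.274, with library totals). Its tested neighbours on both sides had overlapping ranges.

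All 8 genes had the same direction in both allele pairs. Their non-overlapping libraries fixed this in advance, so it is no separate support. Between *nrx-1* (ok1649) and *nrx-1* (tm1961) 3 genes were DEGs, ZK228.3 and ZK228.4 higher (0.0118% of the genes tested) and Y102A5C.36 lower (0.00588%). Between *nlg-1* (ok259) and *nlg-1* (tm474) 2 genes were, ZK228.3 and ZK228.4, both higher (0.0118%), and Y102A5C.36 had an adjusted p of 0.0557. The same-numbered libraries of *nlg-1* (ok259) and *nlg-1* (tm474) deviated together (r = 0.840, 0.642 and 0.233), and with these 6 libraries alone and the replicate number as a block, a fit added after seeing the data, 8 genes were higher and 6 lower, against 0 and 0 without the block. ZK228.3, ZK228.4 and Y102A5C.36 were among the 14. R10E4.1 had a log2 fold change of 2.31 (SE 0.52) in the *nrx-1* pair and 2.05 (SE 0.51) in the *nlg-1* pair. Y102A5C.35 showed the widest gap between the pairs among the 8 genes, which did not pass (unadjusted p = 0.0504). A test of whether the 2 pairs differed gave 0 DEGs over all genes (smallest adjusted p = 1.00), with 222 genes at an unadjusted p below 0.05 (1.3%), and DESeq2 called 10. Fold changes had the same sign in both pairs for 8622 of the 17012 genes.

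**Figure D3:**
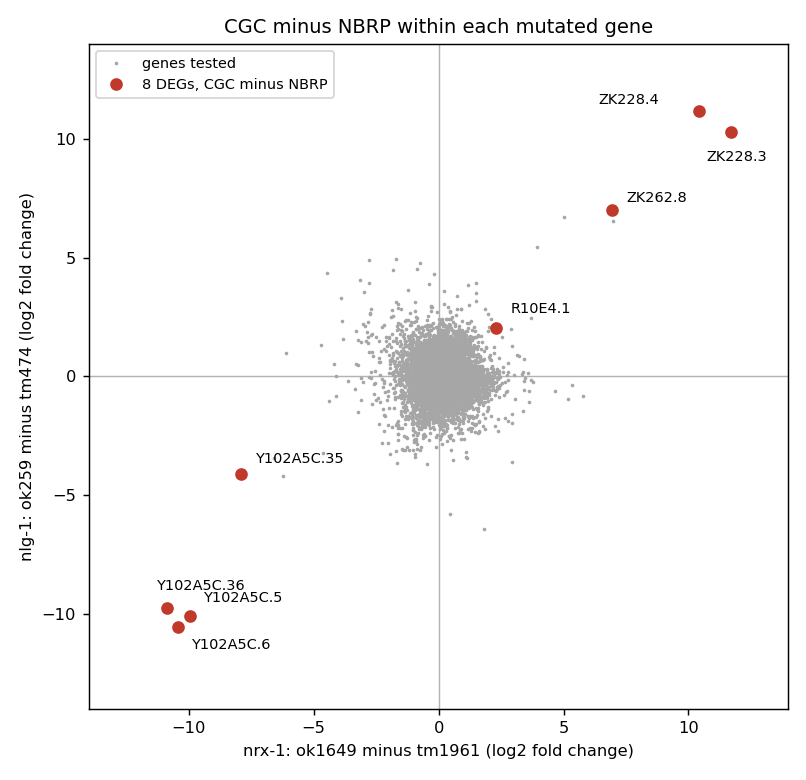
Log2 fold changes of the CGC minus the NBRP allele of *nrx-1* (horizontal axis) and of *nlg-1* (vertical axis), 1 grey point per gene tested, with the 8 DEGs in red. The 8 genes lie in the upper right and lower left quadrants, as their non-overlapping libraries require. The fitted values of genes without counts on one side are drawn where the fit placed them and are not bounds.

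Genes that separated the 2 alleles of one gene but not of the other lay outside this pattern. *flp-10*, an FMRFamide-like neuropeptide gene, had 11.5 to 21.9 CPM in *nlg-1* (ok259), against 1.28 to 3.04 CPM in *nlg-1* (tm474), while the *nrx-1* strains had 10.8 to 16.9 CPM (ok1649) and 13.8 to 19.6 CPM (tm1961). The difference between the pairs was -3.21 on the log2 scale (unadjusted p = 0.000516, adjusted p = 1.00). In the edgeR fit of the 6 *nlg-1* libraries with the replicate block, *flp-10* was a DEG (log2 fold change 2.91, adjusted p = 0.0293). That fit was added after seeing the data, and without the block it called no gene. The same libraries entered the difference between the pairs, so the call is no separate support. Y49E10.16 had 2.26 to 4.57 CPM in *nrx-1* (ok1649), against 28.2 to 47.1 CPM in *nrx-1* (tm1961), and did not separate the *nlg-1* strains (difference between the pairs -3.44, unadjusted p = 0.000631, adjusted p = 1.00). *cat-4*, the GTP cyclohydrolase needed for dopamine and serotonin synthesis, named after its values were seen, lies 258.5 kb left of *nrx-1*. It had 4.30, 7.68 and 13.3 CPM in *nrx-1* (ok1649), against 50.5, 189 and 296 CPM in *nrx-1* (tm1961). The *nlg-1* strains had 100.4 to 118.6 CPM (ok259) and 52.5 to 380 CPM (tm474), and N2 28.4 to 53.3 CPM. Its log2 fold change between CGC and NBRP mutants was -2.71 (SE 0.82, adjusted p = 1.00 in edgeR, a DEG in DESeq2), and the difference between the pairs had an unadjusted p of 0.00967. *cat-4* overlaps *vps-54* on the other strand.

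Beyond the 8 DEGs, 15 further genes had CGC and NBRP libraries that did not overlap, for 23 in all (0.135% of the genes tested, against 0.106% between *nrx-1* and *nlg-1* mutants). Of the 23, 13 were above in CGC mutants (0.0764%) and 10 below (0.0588%). Non-overlap alone does not set these genes apart from chance. None of the 15 passed the adjusted threshold, and the values that follow describe these libraries. *haf-6*, a half-molecule ABC transporter required for efficient RNA interference, was below in CGC mutants. It had 16.4, 10.5 and 14.5 CPM in *nrx-1* (ok1649) and 16.8, 10.4 and 11.9 CPM in *nlg-1* (ok259), against 34.7, 45.1 and 40.03 CPM in *nrx-1* (tm1961) and 80.4, 36.4 and 60.4 CPM in *nlg-1* (tm474). N2, at 47.3, 50.7 and 36.04 CPM, fell within the NBRP range. The log2 fold change was -1.86 (SE 0.32, adjusted p = 0.102), and an adjusted p below 0.05 was reached in 6 alternative fits, among them DESeq2 (5.53e-07) and the fit with the noncoding share as a covariate (0.00352). *haf-6* overlaps Y48G8AL.7 on the other strand, and the strand setting of the counting is not given.

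*spp-9* and *spp-21*, neighbouring genes on chromosome X for saposin-like proteins, which are small and largely antimicrobial, had almost no counts in CGC mutants. *spp-21* had 0 counts in 5 CGC libraries and 1 in replicate 3 of *nlg-1* (ok259), against 17, 11 and 5 counts in *nrx-1* (tm1961) and 1, 11 and 15 counts in *nlg-1* (tm474). *spp-9* had 0 or 1 count in each CGC library, against 23, 16 and 4 counts in *nrx-1* (tm1961) and 1, 11 and 15 counts in *nlg-1* (tm474). N2 had 0 or 1 count of either gene in each library, so the NBRP mutants were the side that differed from N2 in value. NBRP mutants had 49.6 times the CGC level of *spp-21* (95% exact interval 8.57 to 1991) and 28.9 times that of *spp-9* (95% exact interval 7.72 to 244, counting error only). In edgeR the adjusted p was 0.102 for *spp-21* and 0.208 for *spp-9*, and in DESeq2 both were called. T25C12.3, the next gene, named after its values were seen, ran the other way at 201 to 1805 CPM in CGC mutants, 33.9 to 206.7 CPM in NBRP mutants and 517 to 950 CPM in N2 (log2 fold change 3.08, SE 0.74, adjusted p = 1.00). T25C12.3 was a DEG in DESeq2 (adjusted p = 0.00397) and in edgeR with the noncoding share as a covariate (0.0023).

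Among the genes with more counts in CGC mutants, 3 adjacent pseudogenes within 5.18 kb of chromosome II pointed the same way. F07H5.3 averaged 390 ± 183 CPM in CGC mutants and 78.2 ± 32.9 CPM in NBRP mutants, F07H5.5 averaged 733 ± 86.9 CPM in CGC mutants and 242 ± 149 CPM in NBRP mutants (SD, n = 6 each), and N2 had 150 ± 6.37 and 919 ± 98.9 CPM (SD, n = 3). The log2 fold changes were 2.36 (adjusted p = 0.309) and 1.64 (adjusted p = 1.00). F07H5.4, between them and named after its values were seen, had a log2 fold change of 2.30 (adjusted p = 0.309), with its lowest CGC library (40.4 CPM) below its highest NBRP library (45.3 CPM). *cyp-29A3*, a cytochrome P450, had 2.63 to 11.6 CPM in CGC mutants, 1.38 to 2.40 CPM in NBRP mutants and 1.60 to 2.17 CPM in N2 (log2 fold change 1.94, SE 0.39, adjusted p = 0.309). All 4 genes were DEGs in DESeq2, with adjusted p = 0.000742 for F07H5.3, 0.0019 for F07H5.4, 0.0414 for F07H5.5 and 0.00439 for *cyp-29A3*. F07H5.3 and F07H5.4 were also DEGs in edgeR with the noncoding share as a covariate (adjusted p = 0.00106 and 0.00371).

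Most of the other non-overlapping genes named by the rule had few counts. H23L24.1 had 2 to 15 counts in CGC mutants and 0 to 3 in NBRP mutants (log2 fold change 2.44), Y71H2AM.25 had 7 to 21 and 0 to 10 (1.70), and ZC21.3 had 182 to 324 and 45 to 273 (0.89). Their counts overlap in part although their CPM do not. H16D19.3 had 2 to 7 counts in CGC mutants and 19 to 35 in NBRP mutants (log2 fold change -2.59, adjusted p = 0.392). T24A11.5, a noncoding RNA gene that overlaps *mtm-3* on the other strand, had 1 to 8 and 6 to 30 (-1.79), and R03D7.3, a pseudogene, had 49 to 73 and 29 to 143 (-0.48). The adjusted p was 1.00 for all of these but H16D19.3, which DESeq2 called (adjusted p = 0.0019).

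**Figure D4:**
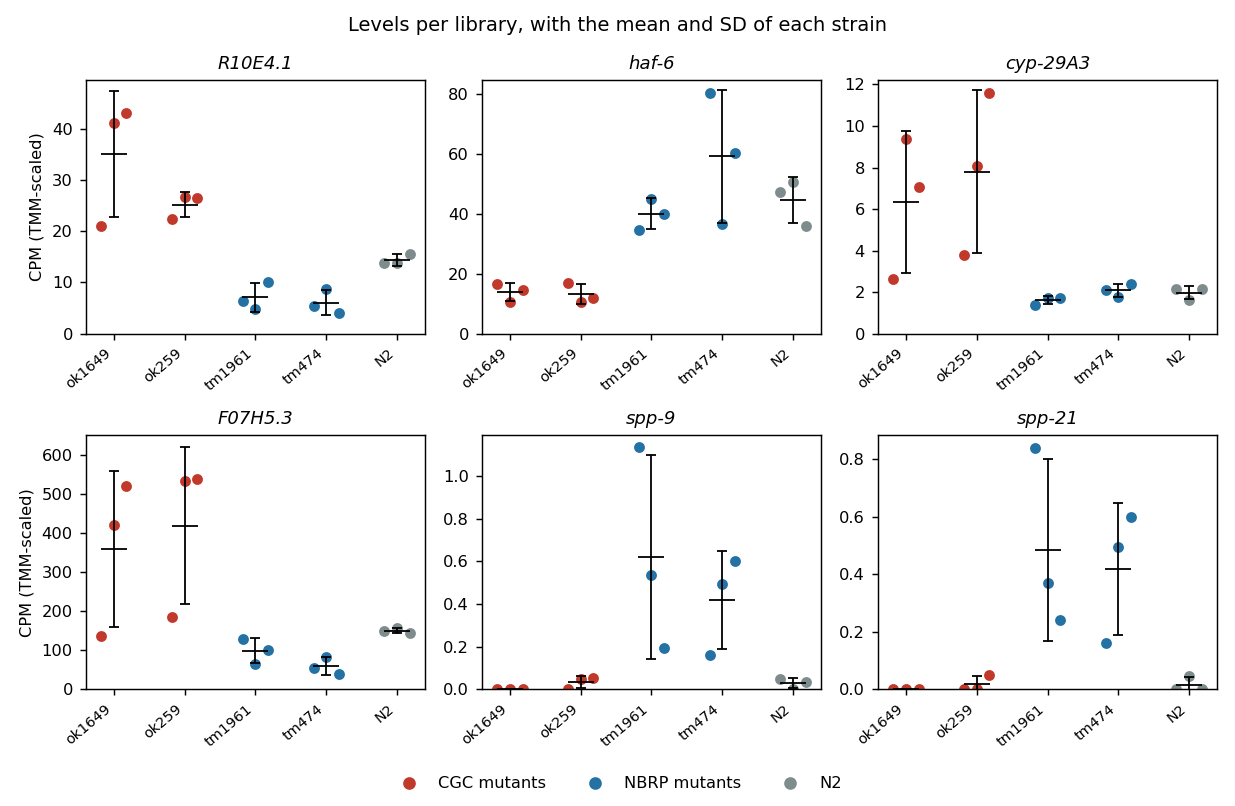
Levels per library in CPM (TMM-scaled, each panel with its own axis from 0) of 6 genes whose CGC and NBRP libraries do not overlap, with the mean and SD of each strain of 3 libraries. R10E4.1, *cyp-29A3* and F07H5.3 are above in both CGC strains, *haf-6*, *spp-9* and *spp-21* are below, and only R10E4.1 was a DEG.

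Set against N2, the mutants of each supplier were lower in their own block. CGC mutants together had 0 genes higher and 5 lower than N2 (0.0287% of 17395 tested), the 4 Y102A5C genes and Y49E10.16. Unlike the Y102A5C genes, Y49E10.16 was far below N2 in 1 CGC strain only. It had 2.26 to 4.57 CPM in *nrx-1* (ok1649), 25.1 to 50.7 CPM in *nlg-1* (ok259) and 56.5 to 65.8 CPM in N2. NBRP mutants had 0 higher and 4 lower (0.023%), ZK262.8, ZK262.9, ZK228.3 and ZK228.4. Y102A5C.36 had a log2 fold change of -0.02 in NBRP mutants against N2 (adjusted p = 0.985), and ZK228.3 had 0.57 in CGC mutants against N2 (adjusted p = 0.493). Other block members lay farther from N2 in value, though none passed. In NBRP mutants against N2, Y102A5C.5 had -1.37 (adjusted p = 0.305), Y102A5C.6 -1.59 (0.287) and Y102A5C.35 0.30 (0.843). In CGC mutants against N2, ZK228.4 had 1.80 (adjusted p = 0.193) and ZK262.8 -0.54 (0.611). The contrasts share the 3 N2 libraries. At an unadjusted p below 0.05, 3463 genes differed between CGC mutants and N2 (19.9%) and 2565 between NBRP mutants and N2 (14.7%). Of the same 17395 genes, DESeq2 called 245 higher and 252 lower in CGC mutants and 118 higher and 57 lower in NBRP mutants. The few edgeR calls therefore do not show that the mutants differ from N2 in the blocks alone. Among the 23 non-overlapping genes, the N2 level was nearer to the CGC level for 12 and to the NBRP level for 11 on the log2 scale.

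None of the 33 gene lists held a DEG, and none had more than 2 members in one direction at an unadjusted p below 0.05. Over the lists, 7 of the 1883 memberships tested were higher and 8 lower in CGC mutants at that level, against 0.3% and 0.341% of all genes tested. The 38 synaptic release and adhesion genes, all tested, had a median log2 fold change of 0.13, close to 0.15 over all genes, with 0 DEGs. The 206 F-box genes tested had a median of 0.16, with 1 higher and 1 lower at an unadjusted p below 0.05, and the 142 chemoreceptor genes of 0.19, with 1 higher. The 129 C-type lectin genes had a median of 0.04, with 1 higher and 2 lower, the 62 immune effector genes of 0.06, with 0 higher and 2 lower (*spp-21* and *spp-9*), and the 45 glutathione S-transferase genes of -0.01, with 0 higher and 2 lower.

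Stage markers varied widely within each supplier. The 6 yolk protein genes, which are active in the intestine of adult hermaphrodites, summed to 356 to 164271 CPM in CGC mutants, 881 to 147545 CPM in NBRP mutants and 8836 to 19972 CPM in N2. Their median log2 fold change was 1.73 (3.43 in the *nrx-1* pair and -0.12 in the *nlg-1* pair), and -2.19 without the 4 libraries with less than 10% of counts on genes other than protein-coding. The 22 oocyte and eggshell genes had a median of 0.89, and -1.60 without those libraries, and the 22 molting genes of -0.96. None of their members passed the adjusted test. For 11 of the 33 lists the medians of the 2 allele pairs had opposite signs. In whole worms, fewer cells of a type and less RNA per cell cannot be told apart, and the part of stage in the non-called differences was not tested.

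**Figure D5:**
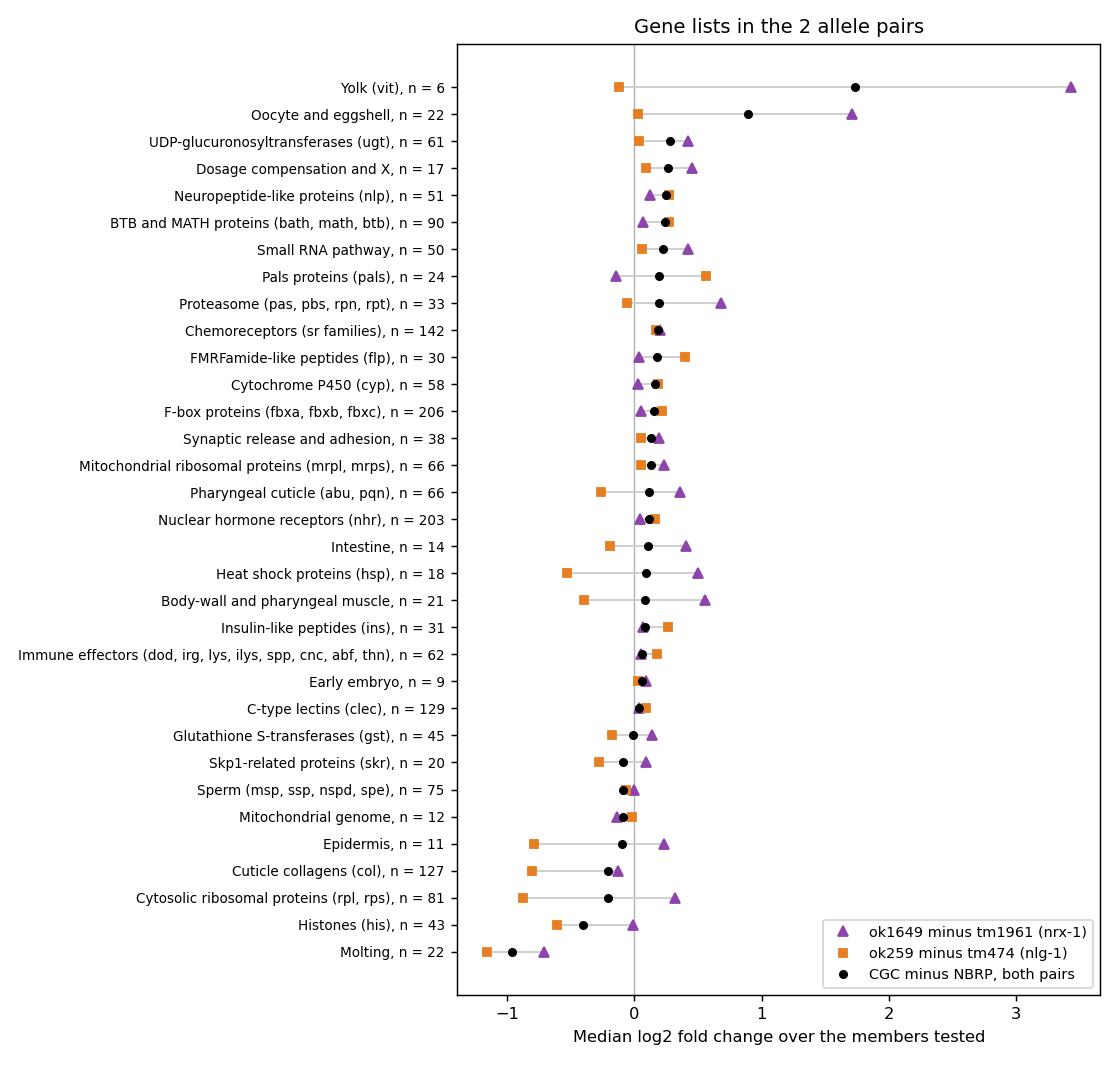
Median log2 fold change over the tested members of each of the 33 gene lists (n beside each name), for *nrx-1* alleles (triangles), *nlg-1* alleles (squares) and both pairs (circles). Yolk genes range from 3.43 in the *nrx-1* pair to -0.12 in the *nlg-1* pair, and no list held a DEG.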

How the data were processed

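The authors trimmed reads with Trimmomatic, aligned them with STAR and counted uniquely mapped reads in exons with featureCounts, from strand-specific, rRNA-depleted libraries, and deposited raw counts per gene, without normalization. The submitters' processing notes name WBcel235. The annotation release and the strand setting of the counting are not given in the sources used here. Of 46756 genes, 31569 had counts and 46581 were found in the Ensembl 115 annotation of WBcel235, which gave positions and biotypes. Groups came from the labels and suppliers from the methods.

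The counts of the 12 mutant libraries were fitted in edgeR 4.0.16 (R 4.3.3) with TMM, filterByExpr and the quasi-likelihood test, mutated gene plus supplier. Fits with 1 mean per strain gave the allele pairs and the contrasts with N2. DESeq2 1.42.0 (the study's tool), 2 normalizations, 2 filters, a replicate block, the noncoding share as a covariate, gene subsets and leaving out each library were alternatives. The code was tested on simulated data. With 3 libraries per strain, p-values measure mainly the spread between preparations. In the fit of mutated gene plus supplier, that spread also includes any difference between the 2 allele pairs. Each supplier has only 2 strains, so no p-value measures the spread between strains of a supplier. A chi-square of 28.3 per degree of freedom or more in all 15 replicate pairs showed no copied library.

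Genes named were *nrx-1*, *nlg-1*, the non-overlapping genes of smallest adjusted p (filled by unadjusted p to 10 in each direction where DEGs were fewer), genes at the floor in one supplier, the 4 list members and 6 genes per direction of smallest p for lists and pair differences (a selection is described), genes with more than 5% of any library (R144.15, ZC155.8 and *rpr-1*, none a DEG), and others said to be named after their values were seen. Members and lists were chosen with earlier results of these data known. No sequence is printed. Intervals and floors cover counting error only.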

Additional observations from a re-analysis of the deposited data

Results flagged for a closer look

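Of 54 groups of 6 libraries checked (25 genes), 5 had 1 library apart from the other 5 by Dixon's criterion. Chance alone flags about 1 in 20 groups where values are normally distributed. Where the other 5 libraries have 0, any count is flagged, as for *spp-21* and ZK228.4, and that rate does not apply. In CGC mutants, replicate 3 of *nlg-1* (ok259) had 0.0501 CPM of *spp-21*, a single count, and the other CGC libraries had 0. In NBRP mutants, replicate 2 of *nrx-1* (tm1961) had 0.0670 CPM of ZK228.4, which is 2 counts, and the other NBRP libraries had 0. Replicate 1 of *nlg-1* (tm474), the library with the fewest counts, had 3.04 CPM of H16D19.3, above the other NBRP libraries. Replicate 1 of *nrx-1* (tm1961) stood above the other NBRP libraries for F07H5.5 (531 CPM) and for *nlg-1* (17.0 CPM).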

How the results depend on the processing

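ZK228.4 stayed a DEG between CGC and NBRP mutants in every alternative, and ZK228.3 and Y102A5C.36 in every one but the fit without the 4 libraries under 10% noncoding counts (adjusted p = 0.0749 for each), an alternative chosen after seeing the data. That fit left 1 higher and 0 lower DEGs, had fewer samples, and gave a log2 fold change of -0.044 for *nlg-1*. DEGs higher and lower in CGC mutants were 9 and 10 in DESeq2 (8 of them shared with the 8), 2 higher with RLE factors, library totals, at least 1 CPM in 6 libraries or without the genes over 5% of a library, and 2 and 2 over protein-coding genes only. Taking the noncoding share as a covariate raised them to 6 and 6 (7 shared with the 8), all 15 libraries gave 5 and 5 (8 shared), and no filter gave 4 and 5 (7 shared). Leaving out each library gave 2 to 3 higher and 1 to 4 lower. The replicate numbers do not pair all samples (18 same-number correlations from -0.879 to 0.909, of which 9 exceed 0.1). All values were positive in 2 of the 6 strain pairs, *nrx-1* (ok1649) with *nlg-1* (ok259) (0.909, 0.832 and 0.545) and *nlg-1* (ok259) with *nlg-1* (tm474) (0.840, 0.642 and 0.233). All were negative for *nrx-1* (tm1961) with *nlg-1* (tm474) (-0.463, -0.0851 and -0.879) and with *nlg-1* (ok259) (-0.230, -0.426 and -0.0946). The values of a strain pair are not independent, since deviations were taken from the mean of each strain. Whether same-numbered libraries share a preparation was not tested. The replicate block left 2 higher and 1 lower, ending the calls of Y102A5C.5, Y102A5C.6, Y102A5C.35 and R10E4.1 (adjusted p = 0.0753) and of ZK262.8 (0.277), and left 2 lower in NBRP mutants against N2. With the 6 *nlg-1* libraries alone, 8 genes were higher and 6 lower with the replicate block, and 0 higher without it. The difference between the allele pairs gave 10 DEGs in DESeq2 and 7 without a filter, and 0 otherwise. Against N2, DESeq2 gave 245 higher and 252 lower genes in CGC mutants and 118 and 57 in NBRP mutants, and leaving out each library gave 3 to 7 and 2 to 3 lower genes. The cause of these changes was not tested. Counts between *nrx-1* and *nlg-1* mutants were 0 in every alternative. The noncoding share differed by 0.34 to 7.24 points when each library was left out. Among list medians, 4 of 792 moved by more than the spread between replicates. Depth limits genes such as ZK262.8, whose bound of 4.40-fold follows from its counts.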

Other observations

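Other genes were named after their values were seen, and none passed the adjusted threshold in the edgeR comparison of the report (adjusted p = 1.00 for each). *glb-5*, a globin of oxygen-sensing neurons, had 0 to 10 counts in CGC mutants, 1 to 32 in NBRP mutants and 2 to 4 in N2 (log2 fold change -2.19; it overlaps C18C4.7 on the other strand), and T02G5.11, a pseudogene called by DESeq2, had 20 to 54 counts in CGC mutants, 44 to 217 in NBRP mutants and 43 to 77 in N2 (-1.67). *asp-12*, an aspartyl protease gene, averaged 7.33 ± 11.7 CPM in CGC mutants, 30.7 ± 29.8 CPM in NBRP mutants and 89.6 ± 32.5 CPM in N2 (SD, n = 6, 6 and 3; log2 fold change between CGC and NBRP mutants -2.20), and was a DEG with the noncoding share as a covariate (-2.66, adjusted p = 0.00816).

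W08E12.4 had 19 and 22 counts in replicates 2 and 3 of *nrx-1* (ok1649), 20 and 18 in replicates 2 and 3 of *nlg-1* (ok259), 0 in replicate 1 of both strains and 0 in all NBRP libraries, against 19, 14 and 3 in N2, and was a DEG without a filter on low counts (log2 fold change 6.80, adjusted p = 0.0496). Its CGC libraries without counts are the 2 with less than 10% of counts on genes other than protein-coding, and the part of that share was not tested. F31C3.14, a noncoding RNA gene, had 8140 counts in replicate 2 of *nrx-1* (ok1649) and 5983 in replicate 3 of *nlg-1* (ok259), against 51 to 122 in the other CGC libraries and 17 to 390 in NBRP mutants.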
